A study of Homo sapiens with 9 samples.

Results

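The genes examined here were TP63 and TP73, which encode p63 and p73 of the p53 family, and 7 other transcription factors of squamous epithelium: SOX2, SOX15, GRHL1, GRHL2, GRHL3, TFAP2A and TFAP2C. They were chosen by gene symbol, and all 9 were found among the 33216 genes measured. RNA-seq had been performed on CAL-27, a long-established human line grown from a squamous carcinoma of the tongue. There were 3 groups of 3 libraries, each taken 48 h after transfection. Cells of the siLEF1 group received siRNA against LEF1, a DNA-binding transcription factor of the Wnt pathway. Cells of the siKDM4A group received siRNA against KDM4A, a histone demethylase. The Control group received a control whose sequence is not given for these libraries, and which of the siRNAs against each target was used is not stated either. The 3 samples of a group are described as independent, but all came from 1 cell line, so the spread between them is that of repeated samples of CAL-27.

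Stratified squamous epithelium is built and kept by a small set of transcription factors. p63 marks its basal cells and drives keratin, integrin and desmosome genes there, mostly through its short ΔN form, which lacks the N-terminal activation domain of the long TA form. p73 is its closest relative and is likewise made in TA and ΔN forms. SOX2 keeps progenitor cells and is often amplified with TP63 on the long arm of chromosome 3 in squamous carcinomas, whereas SOX15 is a related HMG-box factor. The grainyhead-like factors GRHL1, GRHL2 and GRHL3 act in barrier formation, in cell junctions and in late differentiation. The AP-2 factors TFAP2A (AP-2α) and TFAP2C (AP-2γ) bind the promoters of keratin and growth-factor receptor genes.

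TP63 RNA fell to 37.6% of its Control mean after KDM4A knockdown, whereas after LEF1 knockdown it stood at 120% of that mean. TP73 fell after either knockdown, to 62.0% of Control in siLEF1 and 63.7% in siKDM4A. TFAP2A fell in siKDM4A to 52.2% of Control, and it stood at 68.1% in siLEF1. In bulk RNA, fewer cells that express a gene and less of its RNA per cell cannot be told apart. These percentages are ratios of mean FPKM (fragments mapped to a gene, divided by its exon length and by the size of the library). A gene was called changed where its adjusted p from limma was below 0.05 and it differed by more than 1.5-fold. In siKDM4A, 3 of the 9 members were called, each of them lower, where 12.0% of 21253 tested genes were called and 7.80% were called lower. In siLEF1, 1 of the 9 was called (TP73, lower), against 11.6% of 21831 tested genes. The siLEF1 share of the members is thus near that of all genes. By the adjusted p alone 5 of the 9 differed from Control in siLEF1 and 4 in siKDM4A, against 32.5% and 33.1% of all tested genes. GRHL2, 1 of these 5, had an adjusted p over 0.05 in 7 alternatives. The 3 knockdown libraries did not overlap the 3 Control libraries at 6 members in siLEF1 and 5 in siKDM4A, against 46.3% and 47.1% of all tested genes. The median log2 fold change of the 9 was -0.056 in siLEF1 and -0.13 in siKDM4A, beside -0.0069 and -0.054 over all genes tested. All 9 members passed the filter on low values (mean FPKM 0.1 or more) in each comparison.

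The windows of 250 bases just upstream of annotated starts are shown for the 3 genes called after KDM4A knockdown, TP63, TP73 and TFAP2A, with every window the table held for them. They come from RefSeq (GRCh38.p14), are written 5′ to 3′ on the strand of the gene, and end at the base before the start. Windows were read for 6 of the 9 members, and none was read for GRHL2. Capitals mark matches to the AP-2 motif GCCNNNGGC, which reads the same on both strands.
TP63 at its outermost start, from which TA transcripts begin, chr3:189631139-189631388, plus strand: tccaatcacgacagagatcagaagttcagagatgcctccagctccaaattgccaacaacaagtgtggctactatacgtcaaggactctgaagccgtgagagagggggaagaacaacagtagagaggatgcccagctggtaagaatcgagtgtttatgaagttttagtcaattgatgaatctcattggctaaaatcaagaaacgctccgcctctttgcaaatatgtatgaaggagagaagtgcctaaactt
TP73 at its outermost start, chr1:3652266-3652515, plus strand: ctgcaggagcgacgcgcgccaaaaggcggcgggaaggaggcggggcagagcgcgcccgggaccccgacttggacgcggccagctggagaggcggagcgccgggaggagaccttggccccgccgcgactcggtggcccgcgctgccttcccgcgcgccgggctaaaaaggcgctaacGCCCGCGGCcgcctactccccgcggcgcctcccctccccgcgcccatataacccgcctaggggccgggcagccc
TP73 at an internal start, chr1:3690422-3690671, plus strand: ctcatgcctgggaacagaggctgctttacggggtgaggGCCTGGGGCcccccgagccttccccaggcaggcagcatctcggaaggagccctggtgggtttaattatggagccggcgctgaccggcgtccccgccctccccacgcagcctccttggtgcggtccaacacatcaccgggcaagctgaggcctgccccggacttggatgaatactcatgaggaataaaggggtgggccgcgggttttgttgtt
TP73 at a further internal start, chr1:3697796-3698045, plus strand: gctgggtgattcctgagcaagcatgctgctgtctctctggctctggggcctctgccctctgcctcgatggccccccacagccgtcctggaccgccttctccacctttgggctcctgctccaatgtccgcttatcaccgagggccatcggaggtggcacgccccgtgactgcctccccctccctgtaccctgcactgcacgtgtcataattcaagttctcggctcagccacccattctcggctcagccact
TFAP2A at its outermost start, chr6:10419660-10419909, minus strand: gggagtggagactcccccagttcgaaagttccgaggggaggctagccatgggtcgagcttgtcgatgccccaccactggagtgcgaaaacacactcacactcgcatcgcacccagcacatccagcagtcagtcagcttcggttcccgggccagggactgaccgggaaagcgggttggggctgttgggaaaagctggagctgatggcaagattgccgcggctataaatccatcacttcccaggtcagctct
TFAP2A at an internal start, chr6:10412392-10412641, minus strand: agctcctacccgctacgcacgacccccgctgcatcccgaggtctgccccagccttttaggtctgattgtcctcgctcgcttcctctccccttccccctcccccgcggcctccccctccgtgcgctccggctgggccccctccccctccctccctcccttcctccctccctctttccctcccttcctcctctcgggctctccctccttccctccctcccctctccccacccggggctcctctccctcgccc
No window was held for the internal ΔN start of TP63. The AP-2 motif was found once in each of the outermost and the first internal TP73 windows and in none of the other 4 windows shown, and 19.8% of 35116 promoter windows of the same length held it. The TP63 window, which is that of the outermost start, had a GC content of 44.0%, and the outermost TP73 window 77.2%, beside a median of 58.0% over all windows. The LEF1/TCF motif CTTTGA was searched on both strands, like those that follow. It matched in none of the 10 windows read, which include none of SOX15, GRHL2 or TFAP2C, and in 11.2% of all windows. The SOX motif CTTTGT, which differs from it in the last letter, matched in none of the 6 windows shown and in 13.7% of all. Among the windows read but not shown, that of SOX2 held 1 SOX match. The SOX2 window and a GRHL3 window also held the AP-2 motif. The grainyhead motif AACCGGTT and a pair of CATG cores with 6 bases between them, as in p53-family sites, matched in none of the 6 and in 0.117% and 0.296% of all windows. A match or its absence describes these letters in this window only.

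As a check of the labels, LEF1 itself was at 0.997 to 1.27 FPKM in Control and 0.230 to 0.271 FPKM in siLEF1 (log2 fold change -1.84, adjusted p = 0.000572 by limma). KDM4A was at 16.5 to 16.7 FPKM in Control and 2.76 to 2.78 FPKM in siKDM4A (log2 fold change -2.53, adjusted p = 6.79e-07). In siLEF1 KDM4A stood at 84.9% of its Control mean (adjusted p = 0.00114 by limma, not called). In siKDM4A LEF1 stood at 76.5% of its Control mean (adjusted p = 0.134 by limma). Neither overlapped Control. Library sizes recovered from the steps between FPKM values were 15263085 to 17126523 reads. Of 11 epithelial markers, 10 reached 1 FPKM in at least 1 library, whereas KRT19 did not. The summed level of these markers ranged over 1458 to 1485 FPKM in Control, 1493 to 1522 for siLEF1 and 961 to 974 for siKDM4A. In that list KRT5, KRT14, DSP, DSG3, PKP1 and SFN were lower in siKDM4A than in Control while EPCAM, CDH1, KRT8 and KRT18 were higher. Of 9 fibroblast and mesenchymal markers measured, COL1A1, PDGFRB and FN1 reached 1 FPKM, and DCN and PDGFRA stayed below 0.1 FPKM in all libraries. Their sum ranged over 16.5 to 17.9 FPKM in Control, 33.9 to 34.8 for siLEF1 and 34.9 to 36.1 for siKDM4A, most of it FN1. Of 5 endothelial markers only CDH5 reached 1 FPKM, and the sum ranged over 0.694 to 1.28 FPKM in Control, 2.02 to 2.42 for siLEF1 and 2.46 to 2.87 for siKDM4A, while KDR and TEK stayed below 0.1 FPKM. Of 6 leukocyte markers only CD14 reached 1 FPKM, and the sum ranged over 3.26 to 4.57 FPKM in Control, 2.85 to 3.11 for siLEF1 and 1.89 to 2.38 for siKDM4A, while PTPRC, CD68 and CD79A stayed below 0.1 FPKM. The part of these shifts in the members' values was not tested.

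TP63 spans 189631416 to 189897279 of chromosome 3, plus strand (GENCODE release 29, GRCh38). The annotation gives it 14 transcripts with starts spread over 158385 bases, and the deposited value is 1 per gene, so TA and ΔN transcripts were not separated. Its level was 31.4, 31.5 and 31.8 FPKM in the Control libraries, 38.1, 37.6 and 38.0 FPKM in siLEF1, and 11.3, 11.9 and 12.4 FPKM in siKDM4A. No library of any group fell within the range of another group, and the groups stood in the order siLEF1, Control, siKDM4A. In siKDM4A the log2 fold change against Control was -1.40 ± 0.04 (SE) on log2(FPKM + 0.1), with an adjusted p of 4.88e-06 (limma). In siLEF1 it was 0.26 ± 0.02 with an adjusted p of 0.000196, which is past the test's threshold but under the fold threshold. Set against each other in a fit of all 9 libraries, siKDM4A was below siLEF1 by a log2 fold change of -1.67 (95% interval -1.75 to -1.59, adjusted p = 8.25e-09). The knockdowns thus differed from each other at TP63 by more than the spread between libraries. These values rest on 1380 to 4819 reads per library.

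TP73 spans 3652520 to 3736201 of chromosome 1, plus strand, with 14 annotated transcripts whose starts spread over 74958 bases. It was at 3.31, 2.78 and 3.33 FPKM in Control, 1.91, 1.98 and 1.95 FPKM in siLEF1, and 2.21, 1.98 and 1.80 FPKM in siKDM4A. Every knockdown library was below every Control library, and the knockdown groups overlapped each other. The log2 fold change against Control was -0.66 ± 0.09 (SE) in siLEF1 with an adjusted p of 0.00212 and -0.63 ± 0.11 in siKDM4A with an adjusted p of 0.00573 (limma). Between the knockdowns it was 0.031, with a 95% interval of -0.20 to 0.26. Both calls lie just past the 1.5-fold threshold. With a pseudocount of 1 the values were -0.49 and -0.46 and neither was called, and the siKDM4A call was also lost without Control replicate 3 (-0.58) or without siKDM4A replicate 3 (-0.56). The 2 comparisons share the Control libraries. The study had singled out TP73 from these same samples, so its direction here is not independent evidence. WRAP73, which overlaps TP73 on the opposite strand, was at 5.32, 4.20 and 4.93 FPKM on average in Control, siLEF1 and siKDM4A. The kit keeps strand, but the strand setting of the counting is not given in the sources used here, so reads shared by such a pair are uncertain.

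**Figure D1:**
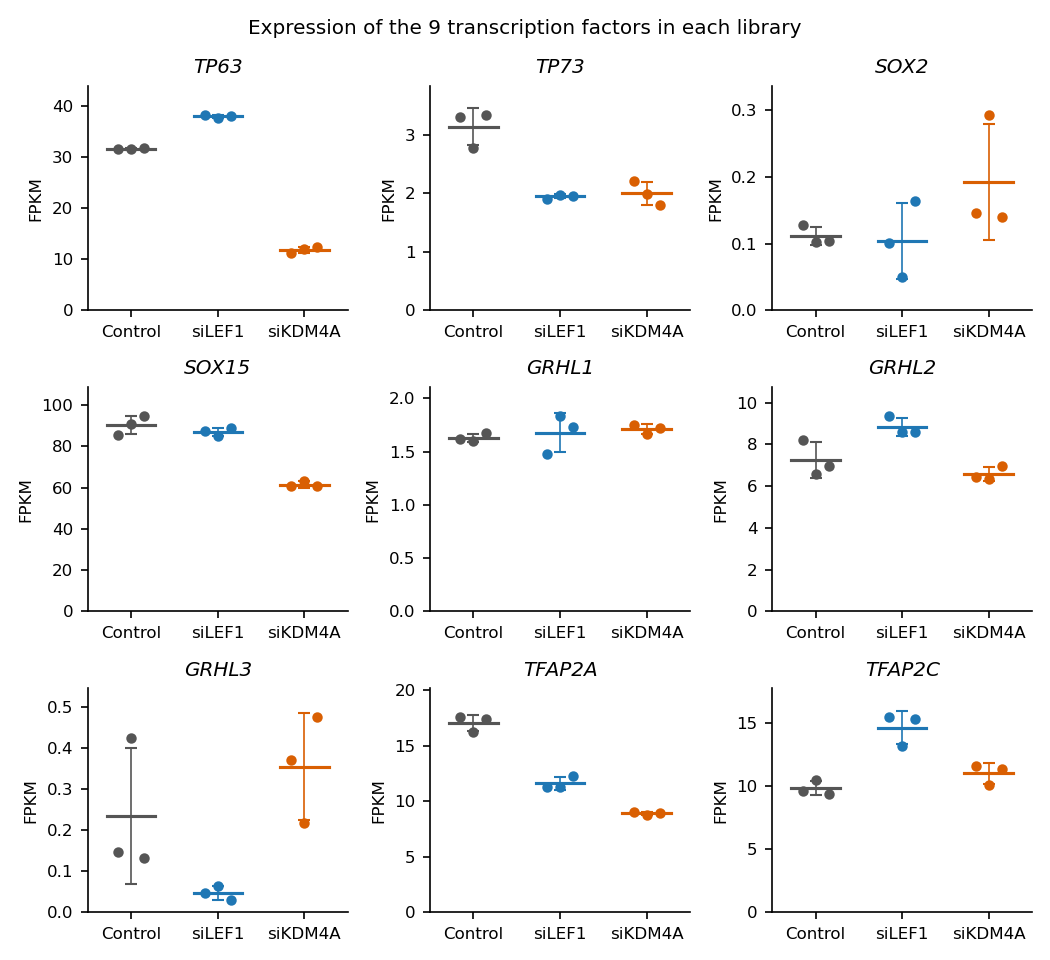
FPKM (y axis, from 0, a separate scale for each gene) of the 9 members in each library of Control, siLEF1 and siKDM4A; points are libraries, the thick line is the mean and the bar is ± 1 SD (n = 3). TP63 sits at 37.6 to 38.1 FPKM in siLEF1 and 11.3 to 12.4 FPKM in siKDM4A on either side of Control, while TP73 is lower in all 6 knockdown libraries.

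The balance within the p53 family differed between the groups accordingly. The ratio of TP63 to TP73 FPKM was 9.51, 11.3 and 9.53 in Control, 19.9, 19.0 and 19.4 in siLEF1, and 5.11, 6.0 and 6.90 in siKDM4A. The 3 groups did not overlap, with siLEF1 highest and siKDM4A lowest. TP63 made up 91.0% of the family's summed FPKM in Control, 95.1% in siLEF1 and 85.6% in siKDM4A. Since the ratio combines values already given, it was not tested again.

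SOX15, an HMG-box factor, had the highest FPKM of the members in every group. It spans 7588178 to 7590170 of chromosome 17, minus strand. It was at 85.7, 91.0 and 94.6 FPKM in Control, 87.2, 84.9 and 88.7 FPKM in siLEF1, and 60.7, 63.2 and 60.6 FPKM in siKDM4A. All siKDM4A libraries were below all others, while siLEF1 and Control overlapped. The log2 fold change in siKDM4A was -0.55 (95% interval -0.65 to -0.46) with a limma adjusted p of 0.000118, short of the 1.5-fold threshold, and without Control replicate 1 it was -0.59 and past it. In siLEF1 it was -0.056 with an interval of -0.15 to 0.039. MPDU1, which overlaps SOX15 on the opposite strand, was at 12.2, 14.4 and 15.8 FPKM in Control, siLEF1 and siKDM4A.

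SOX2, on chromosome 3 from 181711924 to 181714436 within the transcript SOX2-OT of the same strand, was close to the limit of detection. Its recovered reads were 5, 4 and 4 in the Control libraries, 4, 2 and 7 in siLEF1, and 6, 12 and 6 in siKDM4A. This corresponds to 0.050 to 0.293 FPKM over the 9 libraries. The summed reads of siKDM4A over those of Control, per library size, gave a ratio of 1.72 (exact 95% interval 0.840 to 3.67, counting error only). All 3 siKDM4A libraries were above all 3 Control libraries, by as little as 1 read, while siLEF1 overlapped both groups. The log2 fold change was 0.43 in siKDM4A (95% interval -0.47 to 1.33, adjusted p = 0.442 by limma) and -0.084 in siLEF1 (interval -1.05 to 0.88), so neither passed the test at this depth.

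Among the grainyhead-like factors, GRHL2 was the most abundant and GRHL3 the least. GRHL2, on chromosome 8 from 101492432 to 101669726, was at 8.23, 6.57 and 6.98 FPKM in Control, 9.34, 8.60 and 8.59 FPKM in siLEF1, and 6.44, 6.36 and 6.98 FPKM in siKDM4A. All siLEF1 libraries were above all others, and Control and siKDM4A overlapped. Its log2 fold change was 0.29 in siLEF1 (adjusted p = 0.0464 by limma) and -0.13 in siKDM4A (adjusted p = 0.324), and -0.42 for siKDM4A against siLEF1 (adjusted p = 0.00322). None of these reached 1.5-fold. The adjusted p in siLEF1 was over 0.05 in 7 alternatives (0.0704 to 0.136), namely with no filter, with eBayes without a trend and without any 1 of 5 libraries (Control replicate 2 or 3, or any siLEF1 replicate). GRHL1, on chromosome 2 from 9951693 to 10002277, was at 1.62, 1.60 and 1.67 FPKM in Control, 1.47, 1.83 and 1.73 FPKM in siLEF1, and 1.75, 1.66 and 1.73 FPKM in siKDM4A. The 3 groups overlapped, and the 95% intervals of its log2 fold change, -0.24 to 0.31 in siLEF1 and -0.16 to 0.29 in siKDM4A, lay inside the 1.5-fold limits.

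GRHL3, known for late differentiation and closure of epithelia, lies on chromosome 1 from 24319322 to 24364482 and was read few times. The recovered reads were 9, 26 and 8 in Control, 3, 4 and 2 in siLEF1, and 24, 14 and 32 in siKDM4A. In FPKM this was 0.147, 0.425 and 0.133 in Control, 0.0480, 0.0637 and 0.0298 in siLEF1, and 0.371, 0.218 and 0.474 in siKDM4A. Every siLEF1 library was below all 6 others, while Control and siKDM4A overlapped. Against Control the log2 fold change was -1.09 in siLEF1 (95% interval -2.19 to 0.018, adjusted p = 0.126 by limma) and 0.50 in siKDM4A (adjusted p = 0.438), so neither was called. GRHL3 was called higher in siKDM4A than in siLEF1, at a log2 fold change of 1.59 ± 0.41 (SE) and an adjusted p of 0.0133. The ratio of summed reads per library size was 7.62 (exact 95% interval 3.79 to 17.3, counting error only). The call was lost without siKDM4A replicate 3, at 1.40 with an adjusted p of 0.0541, and with a pseudocount of 1, at 0.37. STPG1 overlaps GRHL3 on the opposite strand and was at 1.79, 2.61 and 1.85 FPKM in Control, siLEF1 and siKDM4A.

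**Figure D2:**
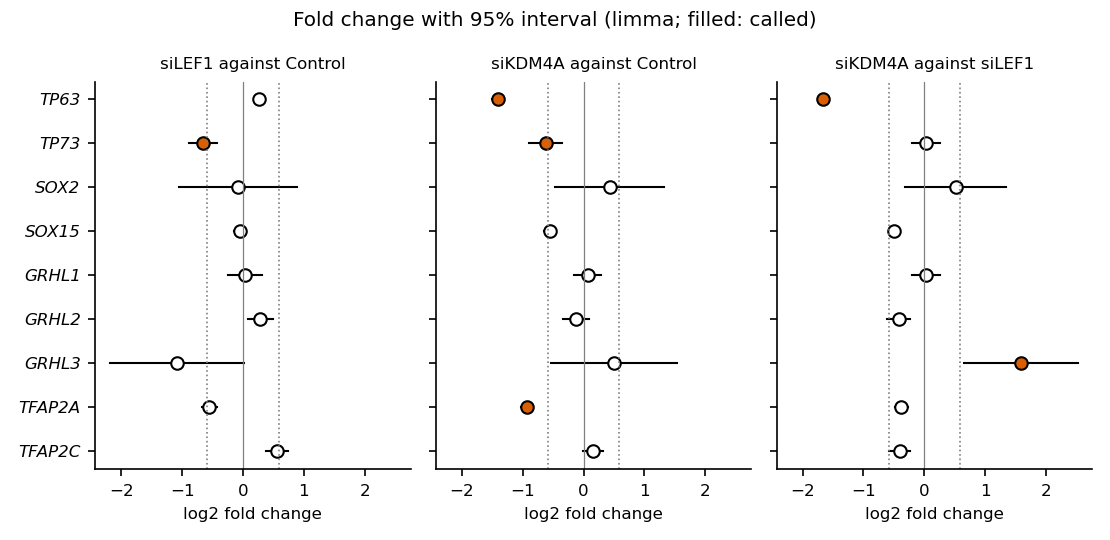
Log2 fold change (x axis, on FPKM + 0.1) of each member in siLEF1 against Control, siKDM4A against Control and siKDM4A against siLEF1; points are limma estimates, bars 95% intervals, dotted lines the 1.5-fold limits and filled points the called genes. TP73 is filled at -0.66 and -0.63 against Control, TP63 at -1.40 and -1.67 and TFAP2A at -0.93, and the bars of SOX2 and GRHL3 are the widest.

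Of the AP-2 genes, TFAP2A fell in siKDM4A and TFAP2C was called in neither knockdown. TFAP2A, at 10393186 to 10419659 of chromosome 6, minus strand, was at 17.6, 16.3 and 17.4 FPKM in Control, 11.3, 11.3 and 12.3 FPKM in siLEF1, and 9.05, 8.76 and 8.92 FPKM in siKDM4A. The 3 groups did not overlap, and Control was the highest. In siKDM4A its log2 fold change was -0.93 ± 0.04 (SE) with a limma adjusted p of 1.98e-05, and it was called. In siLEF1 it was -0.55 with an adjusted p of 0.000274, just short of 1.5-fold, and it was past that limit without Control replicate 2 or without siLEF1 replicate 3, at -0.59 in either case. TFAP2A-AS1, its antisense neighbour, was at 0.691, 0.520 and 0.201 FPKM in Control, siLEF1 and siKDM4A.

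TFAP2C, on chromosome 20 from 56629302 to 56639283, was at 9.64, 10.5 and 9.42 FPKM in Control, 15.5, 13.2 and 15.3 FPKM in siLEF1, and 11.6, 10.1 and 11.4 FPKM in siKDM4A. Its siLEF1 libraries were above all others, whereas siKDM4A overlapped Control. The log2 fold change was 0.56 in siLEF1 (adjusted p = 0.0015 by limma), just under 1.5-fold, and 0.16 in siKDM4A (95% interval -0.0074 to 0.32). The siLEF1 value was past 1.5-fold when libraries were scaled to a common median ratio (0.60), without Control replicate 2 (0.61) or without siLEF1 replicate 2 (0.64).

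The ratio of TFAP2A to TFAP2C was 1.82, 1.55 and 1.85 in the Control libraries, 0.728, 0.861 and 0.803 in siLEF1, and 0.780, 0.868 and 0.785 in siKDM4A. TFAP2A was thus the more abundant of the pair per length in each Control library, and TFAP2C in each of the 6 knockdown libraries. The annotated exon length was 8274 bases for TFAP2A and 3005 for TFAP2C, and TFAP2A had the more reads in every library. Which of the pair is ahead therefore depends on the length used, and transcripts of different length were not separated. The sum of the pair was 26.9 ± 0.238 FPKM (SD, n = 3) in Control, 26.3 ± 1.60 in siLEF1 and 19.9 ± 0.950 in siKDM4A. So the sum in siLEF1 overlapped Control while its composition did not, and in siKDM4A both were apart from Control.

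**Figure D3:**
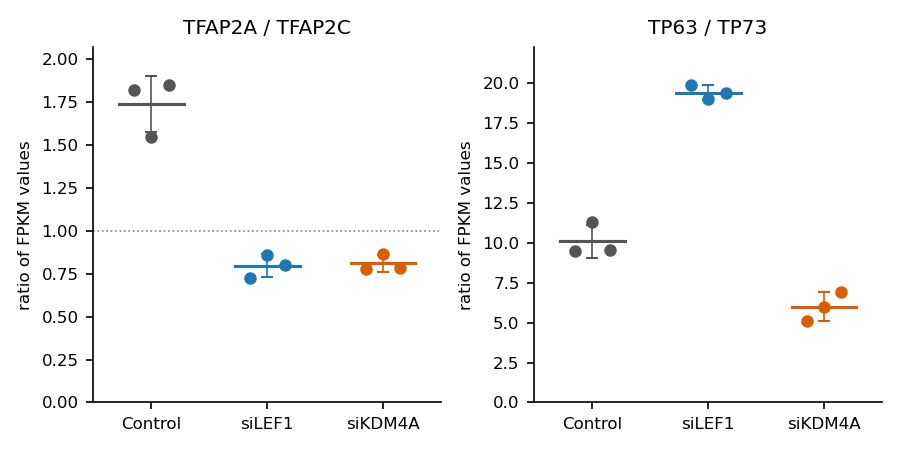
Ratio of FPKM values (y axis, from 0) of TFAP2A to TFAP2C and of TP63 to TP73 in each library; points are libraries, lines means and bars ± 1 SD (n = 3), and the dotted line marks a ratio of 1. The AP-2 ratio is above 1 in Control only, and the TP63 to TP73 ratio is 19.0 to 19.9 in siLEF1 and 5.11 to 6.90 in siKDM4A.

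Ordered by FPKM, which is per length, the Control libraries gave SOX15, TP63, TFAP2A, TFAP2C, GRHL2, TP73, GRHL1, GRHL3 and SOX2, and no range touched that of its neighbour. SOX15 was above 99.0% of genes, TP63 above 95.7% and SOX2 above 37.2%. In siLEF1 TFAP2C stood above TFAP2A, and the ranges of SOX2 and GRHL3 overlapped. In siKDM4A the ranges of TP63 and TFAP2C overlapped, as did those of GRHL3 and SOX2. The summed FPKM of the 9 genes was 161 ± 3.84 (SD, n = 3) in Control, 164 ± 3.78 in siLEF1 and 104 ± 0.517 in siKDM4A. TP63 made up 19.6% of that sum in Control, 23.1% in siLEF1 and 11.4% in siKDM4A.

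Set directly against each other, the knockdowns differed at 2 of the 9 members by both thresholds, with TP63 lower and GRHL3 higher in siKDM4A, where 15.7% of 21587 tested genes were called, 10.3% lower and 5.38% higher. By the adjusted p alone 6 of the 9 differed, against 38.4% of all tested genes, and the groups did not overlap at 6 of the 9, against 49.3%. SOX15 (-0.50), GRHL2 (-0.42), TFAP2A (-0.38) and TFAP2C (-0.41) were each lower in siKDM4A than in siLEF1 on the log2 scale by less than 1.5-fold.

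Genes known as targets of p63 were given by a list of 27, all of them tested. The list was chosen with earlier results of these data known, so its counts are not independent evidence. In siKDM4A 17 of the 27 fell and 1 rose by limma's call, where 7.80% of all tested genes were called lower and 4.23% higher. Their median log2 fold change was -0.81, beside -0.054 over all genes. The largest falls were those of KRT14 (-4.95, adjusted p = 1.48e-05 by limma) and KRT5 (-3.19, adjusted p = 9.55e-07), the paired keratins of basal cells, and of S100A2 (-2.83, adjusted p = 3.27e-07), a calcium-binding protein of basal keratinocytes. KRT5 was at 232 ± 12.2 FPKM (SD, n = 3) in Control and 25.4 ± 1.57 in siKDM4A, and KRT14 at 25.8 ± 2.57 and 0.758 ± 0.269. Keratin genes have near-identical relatives, so their reads could be shared. CLDN1, a tight-junction claudin, was the gene called higher, at 0.80. At an unadjusted p under 0.05 by limma, 4 of the 27 were above 0 in siKDM4A and 20 below. In siLEF1 4 of the 27 rose and none fell by limma's call (10 had a log2 fold change below 0 at an unadjusted p under 0.05), where 6.31% of all tested genes were called higher, 5.31% lower, and their median log2 fold change was 0.024. These were KRT15 (0.87), GPX2 (0.83, adjusted p = 0.0488 by limma), FGFR2 (0.76) and EVPL (0.64), the last named after its value was seen. KRT5 had a log2 fold change of 0.077 and KRT14 of -0.13 there. Of 10 epithelial markers tested, 2 were called higher in siLEF1, and 1 was called higher and 6 lower in siKDM4A. KRT5 and KRT14 stand in that list, in the p63 list and in the AP-2 list.

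**Figure D4:**
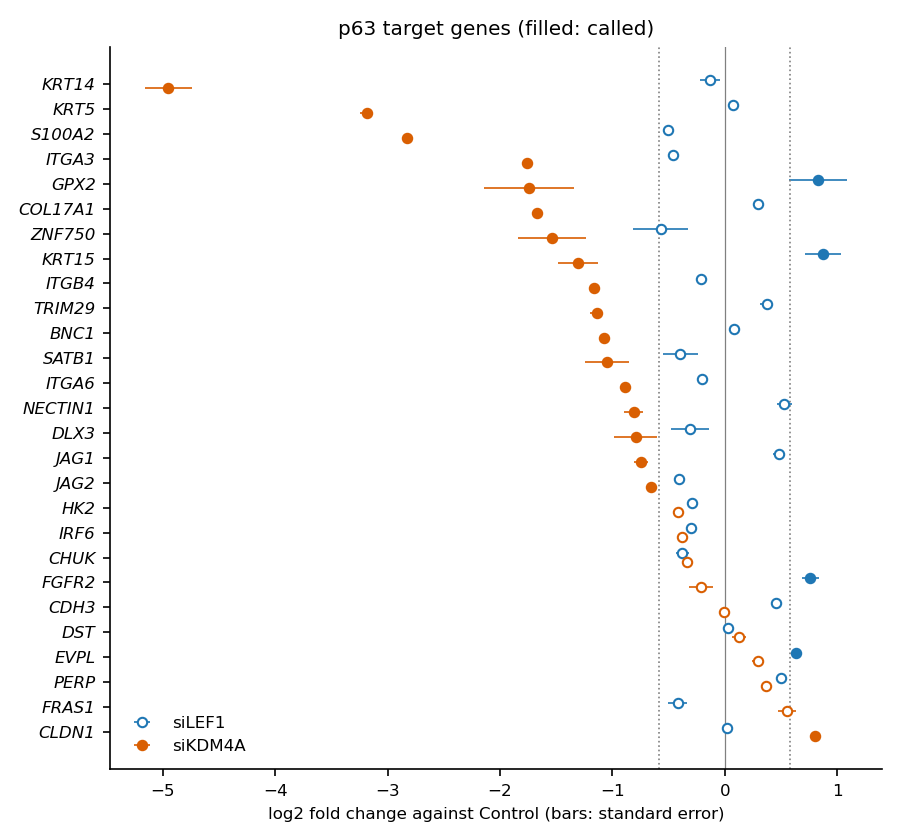
Log2 fold change against Control (x axis, on FPKM + 0.1) of the 27 p63 target genes in siLEF1 and siKDM4A; points are limma estimates, bars standard errors, dotted lines the 1.5-fold limits and filled points the called genes. In siKDM4A 17 genes are filled on the left, down to KRT14 at -4.95, and CLDN1 is filled on the right at 0.80; in siLEF1 4 genes are filled, all on the right.

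Of 17 regulators and cofactors of the p53 family, none was called in siKDM4A by limma, though 13 had an unadjusted p under 0.05 (6 higher and 7 lower), and 1 was called in siLEF1, beside 12.0% and 11.6% of all tested genes. That was MDM2, the ubiquitin ligase of p53, which fell (-0.60, adjusted p = 0.000311 by limma). Of 12 genes that respond to p53 family factors, 3 fell in siKDM4A, where 7.80% of all tested genes were called lower: SFN (-1.46) and CDKN1A (-1.08), which halt the cell cycle, and TP53I3 (-0.74). In siLEF1 2 fell, where 5.31% of all tested genes were called lower, the death receptor gene TNFRSF10B (-1.60, adjusted p = 9.35e-07) and MDM2, which stands in both lists. None of the 12 rose by limma's call in either comparison, with 4 in siLEF1 and 3 in siKDM4A above 0 at an unadjusted p under 0.05. TNFRSF10B was at 47.5 FPKM in Control, 15.6 in siLEF1 and 45.1 in siKDM4A, and the knockdowns differed there by a log2 fold change of 1.53 (adjusted p = 4e-09).

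Of 15 targets of the grainyhead-like factors tested, 1 rose and 1 fell in siLEF1, a share near the 11.6% of all tested genes called there, namely the protease inhibitor gene SPINT1 (0.69) and the transcription factor gene OVOL1 (-0.96). In siKDM4A EPCAM rose (0.60) while OVOL1 (-0.77) and RAB25 (-0.62) fell, 3 of 15 beside 12.0% of all tested genes. Of 15 AP-2 targets and cofactors, 13 passed the filter. In siKDM4A 6 of these fell, where 7.80% of all tested genes were called lower, led by KRT14, KRT5 and CDKN1A, and the adhesion gene MCAM rose (0.72). In siLEF1 MCAM rose (1.10, adjusted p = 6.06e-06 by limma) and CITED2, an AP-2 coactivator gene, fell (-1.29, adjusted p = 2.45e-05), 2 of 13 beside 11.6% of all tested genes. CITED2 was at 20.1 FPKM in Control, 8.15 in siLEF1 and 25.9 in siKDM4A.

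Of 11 paralogs of the members measured, TFCP2 rose in siLEF1 (0.62), and SOX9 rose (0.85) and SOX7 fell (-0.84) in siKDM4A, where 11.6% and 12.0% of all tested genes were called. SOX9, a progenitor factor, was at 13.6 FPKM in Control and 24.6 in siKDM4A. Of 17 other squamous transcription factors tested, PITX1 rose (0.81) and OVOL1 fell in siLEF1, 2 of 17 beside 11.6% of all tested genes. In siKDM4A 6 of the 17 fell, where 7.80% of all tested genes were called lower, led by KLF4 (-1.34, adjusted p = 1.9e-05 by limma), a factor of the suprabasal layers, then BNC1 (-1.08) and PAX9 (-0.80). The 1 that rose was BARX2, from 0.260 to 0.943 FPKM (1.56), named after its value was seen. BNC1, DLX3 and ZNF750 also stand in the p63 list. Among 12 genes of the amplified region around TP63 and SOX2, LPP rose in siLEF1 (0.84) and in siKDM4A (0.73), and MAP3K13 fell in siLEF1 (-0.59). That is 2 of 12 in siLEF1 and 1 of 12 in siKDM4A, shares near the 11.6% and 12.0% of all tested genes.

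The genes whose pattern over the 9 libraries was most like that of TP63, by Pearson's r on log2(FPKM + 0.1) among the 12586 genes whose mean reached 1 FPKM, were COL17A1 (r = 0.998), UNC13D (0.998), TDRD7 (0.998), SEC24D (0.998) and CLDN12 (0.997). COL17A1, which encodes a hemidesmosomal collagen and is also in the p63 list, ranged over 122 to 130 FPKM in Control, 149 to 156 for siLEF1 and 38.7 to 39.6 for siKDM4A. UNC13D was at 13.8 to 14.8, 17.5 to 18.0 and 5.36 to 5.48 FPKM in the same groups. The genes most like TP73 were CDCP1 (r = 0.984), ZBTB40 (0.981), GIT1 (0.977), ZNF395 (0.976) and, below these, ARFGEF3. CDCP1 ranged over 47.9 to 50.9 FPKM in Control, 39.6 to 41.3 for siLEF1 and 40.7 to 42.0 for siKDM4A. Since 9 libraries in 3 groups carry these correlations, they describe likeness in the shape of the pattern over the groups, not in the size of the change. SEC24D, for instance, was at 12.54 FPKM on average in Control, 13.15 in siLEF1 and 8.753 in siKDM4A.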

How the data were processed

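RNA-seq libraries of CAL-27 cells were made with a stranded mRNA kit from 3 groups of 3 samples. For each library a table of FPKM per gene was deposited by the authors. The submitters' processing notes name Trimmomatic, HISAT2, Cufflinks, HTSeq and the build hg38. Their versions and the strand setting are not given in the sources used here, and FPKM divides by a gene length that can differ from GENCODE's.

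Values were compared in R 4.3.3 with limma 3.58.1 (trend) on log2(FPKM + 0.1), keeping genes whose mean over the libraries compared reached 0.1 FPKM. Each knockdown was compared with Control over 6 libraries, and siKDM4A with siLEF1 in a fit of all 9. Genes with a Benjamini-Hochberg adjusted p below 0.05 over all tested genes and a fold change above 1.5 were called. The deposited values were not counts, but whole reads were recovered from their steps for 99.874% of genes (tolerance 0.02 read). TFAP2A's reads came from the steps alone.

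Named genes were the 9 members, LEF1, KDM4A, at most 3 rises and 3 falls per list and comparison among genes whose mean reached 1 FPKM, and the 5 genes most like TP63 or TP73. Members and lists were chosen with earlier results of these data known. DSG1, COL3A1, SOX3, SOX11, SOX21, TFAP2B and TFAP2D were not analysed here. Alternatives were pseudocounts of 1 and 0.01, other filters, scaled libraries, eBayes without a trend, a replicate block, voom on recovered reads, other sets of libraries in the fit, a fold change of 2 and leaving out each library. Counts over the p63 list under these were added after the data were seen. Scripts were tested on simulated data, and tables were made with Python 3.11.15. Promoter windows came from RefSeq (GRCh38.p14), gene positions from GENCODE release 29.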

Additional observations from a re-analysis of the deposited data

Results flagged for a closer look

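The effects of the knockdowns on TP63 and GRHL3 differed from each other by the test of siKDM4A against siLEF1 in the fit of 9 libraries. For TP63 the log2 fold change between them was -1.67 (adjusted p = 8.25e-09 by limma), and each of the 3 siKDM4A libraries was below Control while each of the 3 siLEF1 libraries was above it. For GRHL3 the log2 fold change was 1.59 (adjusted p = 0.0133), with 9 reads in all in siLEF1 and 70 in siKDM4A. Without siKDM4A replicate 3 the GRHL3 value was 1.40 and its adjusted p 0.0541.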

How the results depend on the processing

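Of 447 values of single members under an alternative, 428 kept their direction and their call by both thresholds together. A further 6 were newly called, 9 lost their call and 4 changed sign, and none of the 4 was called. In some alternatives the direction could not change. The limit of 2 was set on the main fit, and leaving out a Control library does not alter the fold change between the knockdowns. Other filters, eBayes without a trend, the replicate block and other sets of libraries in the fit also left each fold change as it was. Only the adjusted p and the call could change there. Among the 428, the adjusted p crossed 0.05 in 8, which were GRHL2 in siLEF1 in 7 (0.0704 to 0.136, from 0.0464) and TFAP2C in siKDM4A without siKDM4A replicate 2 (0.0465, from 0.134). With each library left out, in siLEF1 against Control SOX2 ranged from -0.11 to 0.12 and GRHL1 from -0.029 to 0.12, and in siKDM4A against siLEF1 GRHL1 ranged from -0.052 to 0.095 and TP73 from -0.039 to 0.099. Calls of TP63 in siKDM4A held under every alternative run. In siLEF1 against Control, the members called numbered 0 with a pseudocount of 1, 2 with scaled libraries (TP73 and TFAP2C) and 0 at a fold change above 2, and 1 to 3 with each library left out. In siKDM4A against Control they numbered 1 at a fold change above 2 (TP63), and 2 to 4 with each library left out. In siKDM4A against siLEF1 they numbered 1 with a pseudocount of 1 and 1 with a filter at a mean of 1 FPKM, which leaves out GRHL3, and 1 to 2 with each library left out.

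Over all genes, the calls in siLEF1 against Control, siKDM4A against Control and siKDM4A against siLEF1 numbered 2538, 2556 and 3389. They were 1405, 1462 and 1846 with a pseudocount of 1, and 1070, 1079 and 1513 at a fold change above 2. With each library left out they ranged from 2239 to 2347, 2278 to 2430 and 3052 to 3351. The p63 targets called numbered 4, 18 and 18 in the same comparisons. In siLEF1 they numbered 2 with a pseudocount of 1, 0 at a fold change above 2 and 3 to 4 with each library left out. They numbered 3 there with a pseudocount of 0.01, with no filter, without a trend, with the replicate block and with 9 libraries in the fit. In siKDM4A against Control they numbered 12 at a fold change above 2 and 16 to 18 with each library left out. They numbered 15 there with a pseudocount of 1 and 15 with a filter at a mean of 1 FPKM. In siKDM4A against siLEF1 they numbered 11 at a fold change above 2 and 17 to 18 with each library left out. They numbered 16 there with a pseudocount of 1 and 15 with a filter at a mean of 1 FPKM. Correlations of deviations between groups were -0.0401 to 0.0427 for libraries with the same replicate number and -0.0844 to 0.0706 for different numbers. No shared deviation by number was thus seen, which cannot tell whether samples were prepared in pairs. With the replicate block the calls numbered 2245, 2305 and 3268, and 1, 3 and 2 members.

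Low depth limits SOX2 and GRHL3, at 2 to 32 reads per library. A gene of 1 kb needed 0.175 to 0.197 FPKM to reach 3 reads. Why calls were lost or gained was not tested, beyond the fold limits and filters themselves. Scaling moved the median log2 fold change of all genes by less than 0.1.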
